A study of Mus musculus with 20 samples.

Results

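Transcripts of 9 genes of the transforming growth factor β (TGF-β) pathway were followed across radiation dose in the mouse aorta. The 9 genes were taken by symbol from the deposited table of 21078 genes: the ligands Tgfb1, Tgfb2 and Tgfb3, the receptors Tgfbr1, Tgfbr2 and Tgfbr3, the latent ligand binder Ltbp1, the inhibitor Smad7 and the target Ctgf. Each symbol had 1 row, and all 9 passed the filter on low counts (mean of 5 or more), which 13124 genes did. The animals were 20 wildtype male C57BL/6 mice aged 10 to 12 weeks, 10 in the proton series and 10 in the gamma series. Each series held 1 mouse at 0, 5, 10, 25, 50, 75, 100, 125, 150 and 200 cGy, given to the whole body, and the thoracic aorta was taken 4 h later. The mice at 0 cGy were sham animals, placed in the irradiator without exposure. With 1 mouse per dose and series, no value at a single dose has a replicate, and the comparisons rest on the change across the 10 doses.

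TGF-β ligands are secreted in a latent form, held to the matrix by latent TGF-β binding proteins until they are released. An active ligand binds the type II receptor Tgfbr2, which recruits and phosphorylates the type I receptor Tgfbr1, and the signal passes through SMAD proteins to the nucleus. Tgfbr3, or betaglycan, is a co-receptor that presents ligand, with TGF-β2 as the ligand most dependent on it. Smad7 is induced by the pathway and inhibits it, and Ctgf, a matricellular protein now named Ccn2, is a classical target gene. In the aorta the pathway is known for its part in smooth muscle identity, matrix production and inherited aneurysm disease.

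The libraries had been resampled by the authors to nearly 1 depth, between 6051657 and 6058006 counts per mouse, so raw counts can be read side by side. Radiation itself was visible in the p53 target Cdkn1a, with 345 counts in the sham mouse and 2977 at 150 cGy in the proton series, and 366 in the sham mouse, 262 at 5 cGy and 2937 at 200 cGy in the gamma series. The 5 smooth muscle markers were abundant, with a sum of 237977 to 324203 counts in 19 mice, as the tissue label says. In the proton mouse at 75 cGy they summed to 160146. That mouse also had 14394 counts of the 5 brown fat markers, against 480 to 5202 in the others, and 16380 of the 5 white fat markers, against 1203 to 6534. The 4 mice at 150 and 200 cGy stood apart in a second way. The correlation across genes of a library's deviations with transcript GC content was between -0.401 and -0.349 in them and between -0.0182 and 0.284 in the 16 mice at 0 to 125 cGy. Their 5 fibroblast markers summed to 7042 to 11246 counts, below the 13107 to 23913 of the other 16 mice. Of these markers Col1a1 alone did not overlap between the sets of mice, with 4517 to 6209 against 9381 to 17397 counts, and none of the 5 was at 0 in any mouse.

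All 9 genes were expressed in every mouse. Levels are compared between genes as counts per kilobase of exon. Ctgf was by far the most abundant, with a median of 6830 counts per kilobase over the 20 mice, followed by Ltbp1 with 569 and Tgfb3 with 408. The receptors Tgfbr1 and Tgfbr2 had medians of 161 and 134 counts per kilobase. Tgfb2 had 131, Tgfbr3 91.6, Smad7 68.1 and Tgfb1 51.4. Of the neighbours in this order, Ctgf and Ltbp1 were the only pair whose ranges did not overlap. Within a mouse, Ctgf exceeded Ltbp1, Ltbp1 exceeded Tgfb3, and Tgfb3 exceeded Tgfbr1 in 20 of 20 mice. Tgfbr2 exceeded Tgfb2 in 12 of 20, so that these 2 levels were not separable. Tgfb3 was the leading ligand transcript in this tissue. Tgfb1 had the lowest median of the 9 genes, and Smad7 exceeded it in 16 of 20 mice.

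**Figure D1:**
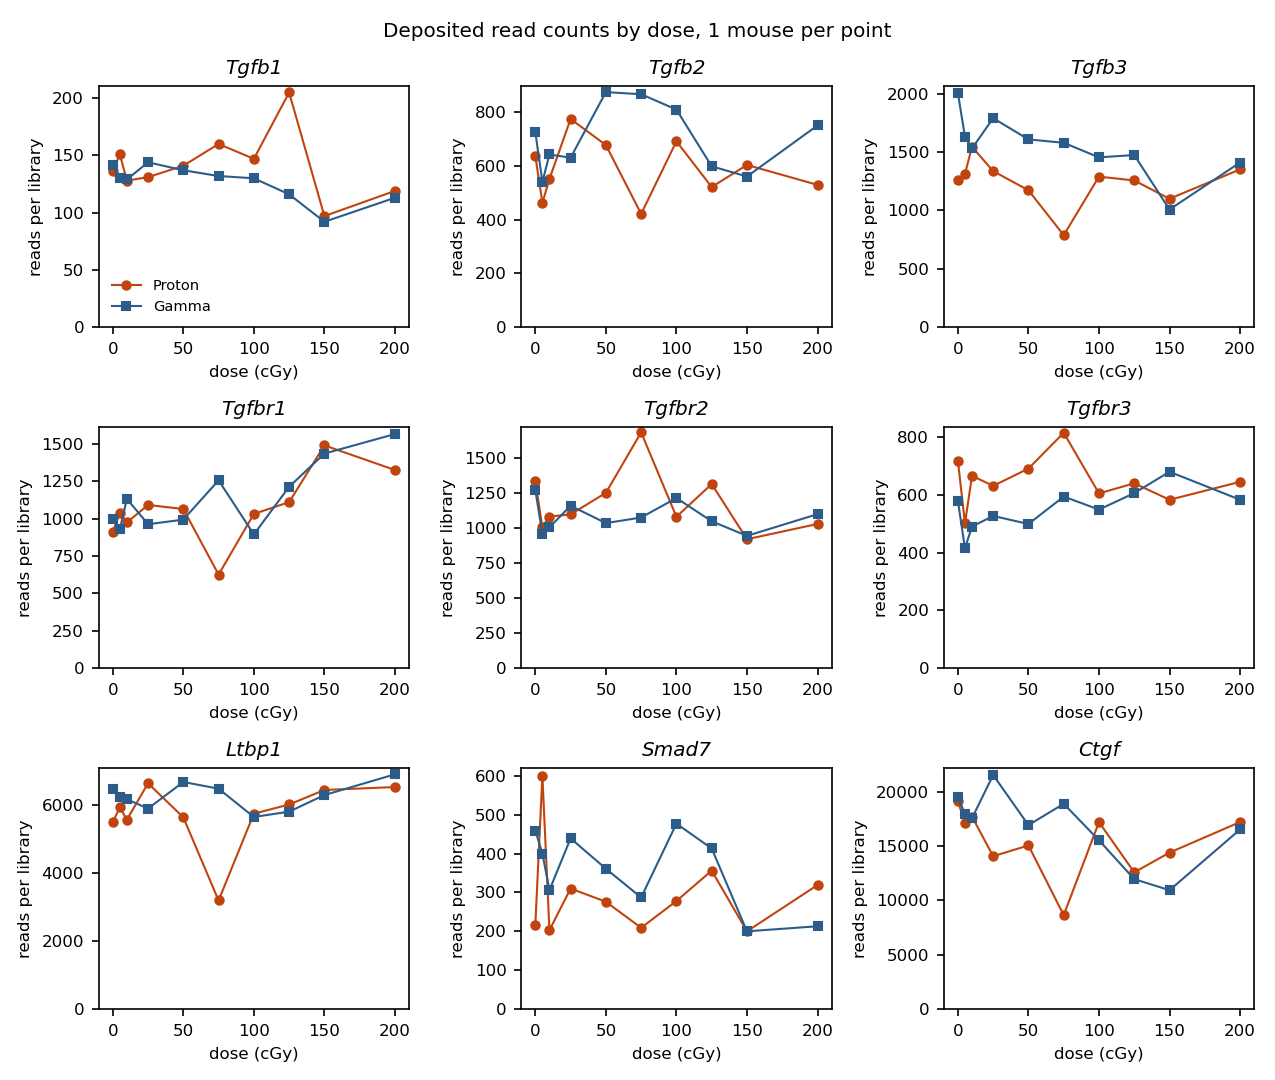
Deposited read counts of the 9 genes (vertical axis, reads per library, from 0) against dose in cGy (horizontal axis), with 1 point per mouse, circles for protons and squares for gamma rays. Tgfbr1 was above 1300 reads in all 4 mice at 150 and 200 cGy, and the proton mouse at 75 cGy had the lowest counts of Ltbp1, Ctgf, Tgfb2, Tgfb3 and Tgfbr1.

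The ligand Tgfb1, the prototype of the family, lies on chromosome 7 (mm9, 26472021 to 26490096, plus strand). Its counts in the proton mice, in order of dose, were 136, 151, 128, 131, 141, 160, 147, 205, 97 and 119. In the gamma mice they were 142, 130, 129, 144, 137, 132, 130, 116, 92 and 113. The lowest count in each series was at 150 cGy and the proton maximum was at 125 cGy. The 4 mice at 150 and 200 cGy had 92 to 119 counts, against 116 to 205 in the other 16, so the sets overlapped only through the gamma mouse at 125 cGy and the proton mouse at 200 cGy. The edgeR slope of log2 expression was -0.036 ± 0.109 (SE) per 100 cGy after protons (adjusted p = 0.954) and -0.215 ± 0.107 after gamma rays (adjusted p = 0.297). Over 0 to 125 cGy alone the proton slope turned to 0.348 ± 0.101 (adjusted p = 0.729), while the gamma slope was -0.176 ± 0.106. The gamma rank rho was -0.693 (exact one-sided p = 0.0154, adjusted p = 0.347), and -0.855 on TMM-normalized counts (adjusted p = 0.115), on which Tgfb3, described next, had -0.842. Tgfb1 has the highest transcript GC content of the 9 genes, 62.5%, and with offsets for GC content and length its slopes were 0.072 ± 0.078 and -0.090 ± 0.077.

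Tgfb2 (chromosome 1, 188447065 to 188529871, minus strand) encodes the ligand that needs the co-receptor most. It had 636, 462, 551, 774, 677, 421, 691, 521, 603 and 529 counts in the proton mice. In the gamma mice it had 725, 540, 642, 630, 874, 866, 809, 598, 560 and 750. The 3 highest gamma counts were at the middle doses of 50, 75 and 100 cGy, and no course with dose was apparent in either series. Its slopes were -0.053 ± 0.127 after protons and 0.020 ± 0.128 after gamma rays (edgeR adjusted p = 0.934 and 0.968). A small nucleolar RNA on the other strand overlaps Tgfb2, and the counts are of sense reads.

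Tgfb3 (chromosome 12, 87397694 to 87419991, minus strand) encodes the third ligand and went down in rank with dose in the gamma series. The gamma mice had 2006, 1632, 1532, 1791, 1609, 1580, 1455, 1475, 1008 and 1411 counts, highest in the sham animal and lowest at 150 cGy. The proton mice had 1264, 1313, 1546, 1337, 1173, 788, 1290, 1257, 1100 and 1352, with no such order. The exact one-sided rank test over all orders of the doses gave a Spearman rho of -0.879 in the gamma series (p = 8e-04, adjusted over all genes p = 0.128). The gamma slope was -0.266 ± 0.107 per 100 cGy, a fold of 0.832 (edgeR adjusted p = 0.172), and the proton slope was -0.052 ± 0.104. The gamma slope stayed close to this over 0 to 125 cGy, at -0.271 ± 0.162, and with GC and length offsets, at -0.238 ± 0.118. Without the pair of mice at 75 cGy it was -0.278 ± 0.079 and passed the threshold (adjusted p = 0.0454), and without the mouse at 200 cGy it was -0.414.

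Upstream sequence was available here for 5 of the 9 genes, Tgfb1, Tgfb2, Tgfbr1, Tgfbr2 and Ltbp1, from RefSeq on GRCm38.p6, and was searched for CAGAC on both strands. These are the letters of the SMAD-binding element, the short motif through which SMAD proteins contact DNA. Tgfb3, Tgfbr3, Smad7 and Ctgf were not matched. The 250 bases before the start are shown for the ligand with the motif, the ligand without it and the type I receptor whose level was higher at the highest doses. The capitals mark the motif.
Tgfb1 (chr7:25686752-25687001, plus strand): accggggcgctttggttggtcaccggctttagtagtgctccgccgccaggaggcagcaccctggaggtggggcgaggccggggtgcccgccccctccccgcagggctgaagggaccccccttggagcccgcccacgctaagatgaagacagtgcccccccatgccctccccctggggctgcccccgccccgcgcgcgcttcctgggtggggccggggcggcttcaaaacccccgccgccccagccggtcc
Tgfb2 (chr1:186705990-186706239, minus strand): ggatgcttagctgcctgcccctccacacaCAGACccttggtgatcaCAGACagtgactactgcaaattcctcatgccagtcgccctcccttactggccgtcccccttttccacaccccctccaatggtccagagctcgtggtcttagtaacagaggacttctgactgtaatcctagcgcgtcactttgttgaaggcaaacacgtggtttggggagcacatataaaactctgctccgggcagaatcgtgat
Tgfbr1 (chr4:47352972-47353221, plus strand): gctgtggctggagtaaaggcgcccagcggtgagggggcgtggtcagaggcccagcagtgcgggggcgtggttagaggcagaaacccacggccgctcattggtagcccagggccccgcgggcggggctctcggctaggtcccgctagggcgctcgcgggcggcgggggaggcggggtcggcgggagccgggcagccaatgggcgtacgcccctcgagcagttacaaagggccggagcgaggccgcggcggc
Tgfb2 held the motif at 2 places, and 11.7% of 32851 mouse promoters of this length held it at least as often. Tgfb1 and the first Tgfbr1 start held none, as against 42.2% of promoters with at least 1. A second Tgfbr1 start held 1, as did Tgfbr2, and the 2 starts of Ltbp1 held 1 and 2. The GC content of the windows shown was 75.2% for Tgfb1 and 74.8% for Tgfbr1, against 52.8% at the second Tgfbr1 start and a median of 52.4% over all promoters. A match of 5 letters is a description of the window and not a measure of binding.

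Ltbp1 (chromosome 17, 75404908 to 75791852, plus strand) ties latent ligand to the extracellular matrix. Its counts in the proton mice were 5490, 5917, 5559, 6627, 5627, 3188, 5735, 6005, 6431 and 6517. In the gamma mice they were 6469, 6213, 6158, 5886, 6666, 6469, 5638, 5795, 6282 and 6891. Apart from the proton mouse at 75 cGy all values lay between 5490 and 6891. The slopes were 0.088 ± 0.104 after protons and 0.015 ± 0.105 after gamma rays (edgeR adjusted p = 0.814 and 0.971). The proton mouse at 75 cGy had 3188 counts, beside the lowest smooth muscle and the highest fat marker sums. In bulk tissue, fewer cells of a type and less RNA per cell cannot be told apart. A pseudogene on the same strand lies within Ltbp1, so its counts may hold reads of either.

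Among the receptors, Tgfbr1, the type I receptor kinase, was the gene of the 9 whose 4 mice at 150 and 200 cGy did not overlap the other 16. It lies on chromosome 4 (47366094 to 47427803, plus strand). The proton mice had 911, 1039, 975, 1092, 1065, 626, 1032, 1111, 1491 and 1326 counts. The gamma mice had 995, 929, 1133, 963, 994, 1257, 895, 1214, 1436 and 1567. The 4 mice at the highest doses thus had 1326 to 1567 counts, against 626 to 1257, and the ratio of the medians was 1.44. Of all genes tested, 6.8% had these 4 mice all above and 2.47% all below the other 16. The slopes were 0.260 ± 0.111 after protons (edgeR adjusted p = 0.31) and 0.303 ± 0.111 after gamma rays (adjusted p = 0.134), a fold of 1.2 and 1.23 per 100 cGy.

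The size of the Tgfbr1 difference changed with the mice and the correction used. The slopes were 0.002 ± 0.178 and 0.108 ± 0.180 over 0 to 125 cGy. With GC and length offsets they were 0.153 ± 0.104 and 0.165 ± 0.104. Tgfbr1 has the lowest transcript GC content of the 9 genes, 41.0%. The gamma slope passed the threshold without the pair at 75 cGy, at 0.291 ± 0.076 (edgeR adjusted p = 0.0338). It also passed with the brown fat marker score as a covariate, at 0.345 ± 0.091 (adjusted p = 0.0297). The part of the GC shift and of the lower fibroblast markers in the high-dose counts was not tested beyond these values.

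Tgfbr2 (chromosome 9, 115993415 to 116084383, minus strand), the ligand-binding type II receptor, had 1333, 1004, 1082, 1097, 1251, 1683, 1080, 1314, 920 and 1029 counts in the proton mice. The gamma mice had 1271, 957, 1005, 1159, 1035, 1075, 1214, 1048, 944 and 1099. Its highest count was in the proton mouse at 75 cGy, where Tgfbr1 was lowest, and the 150 cGy mouse was lowest in both series. The slopes were -0.066 ± 0.097 and -0.039 ± 0.094 (edgeR adjusted p = 0.863 and 0.909).

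Tgfbr3 (chromosome 5, 107535589 to 107718648, minus strand), the co-receptor, had 718, 501, 666, 631, 691, 815, 605, 640, 583 and 645 counts in the proton mice. The gamma mice had 579, 415, 490, 527, 499, 594, 549, 606, 680 and 583. The gamma counts tended upward, with a rank rho of 0.697 (exact one-sided p = 0.0153, adjusted p = 0.208) and a slope of 0.178 ± 0.077 (edgeR adjusted p = 0.214). The proton slope was -0.004 ± 0.078. The gamma slope was 0.180 ± 0.131 over 0 to 125 cGy and 0.081 ± 0.073 with GC and length offsets.

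Smad7 (chromosome 18, 75527183 to 75555589, plus strand), the inhibitor that the pathway itself induces, varied from 200 to 600 counts. Its counts in the proton mice were 217, 600, 203, 310, 276, 209, 278, 356, 200 and 319. In the gamma mice they were 459, 400, 306, 439, 361, 287, 477, 413, 200 and 213. In the gamma series the mice at 150 and 200 cGy, with 200 and 213 counts, were below all 8 mice at lower doses, which had 287 to 477. The proton mouse at 200 cGy did not share this low count, and the proton maximum of 600 was at 5 cGy. The share of all genes with the gamma mice at 150 and 200 cGy below the other 8 was not computed. The gamma slope was -0.396 ± 0.225 (edgeR adjusted p = 0.38). It was 0.002 ± 0.339 over 0 to 125 cGy, so that the negative value rested on the 2 mice at the highest doses. The proton slope was -0.117 ± 0.209 with all mice and turned positive, at 0.186, without the mouse at 5 cGy.

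Ctgf (chromosome 10, 24315248 to 24318489, plus strand), the other target, had 19119, 17095, 17689, 14054, 15041, 8632, 17185, 12570, 14383 and 17194 counts in the proton mice. The gamma mice had 19496, 17930, 17548, 21516, 16911, 18869, 15515, 11945, 10928 and 16511. The gamma counts were 16911 or higher up to 75 cGy and 16511 or lower from 100 cGy on. The rank rho in the gamma series was -0.758 (exact one-sided p = 0.00746, adjusted p = 0.256), and the slope was -0.273 ± 0.136 (edgeR adjusted p = 0.297), which became -0.528 without the mouse at 200 cGy. Over 0 to 125 cGy the gamma slope was -0.451 ± 0.213 and the proton slope -0.377 ± 0.20 (adjusted p = 0.835 and 0.983), against -0.073 ± 0.131 for protons over all doses. Without the pair at 75 cGy the gamma slope over all doses was -0.286 ± 0.10 and passed the threshold (adjusted p = 0.0951). A noncoding RNA on the other strand overlaps Ctgf.

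**Figure D2:**
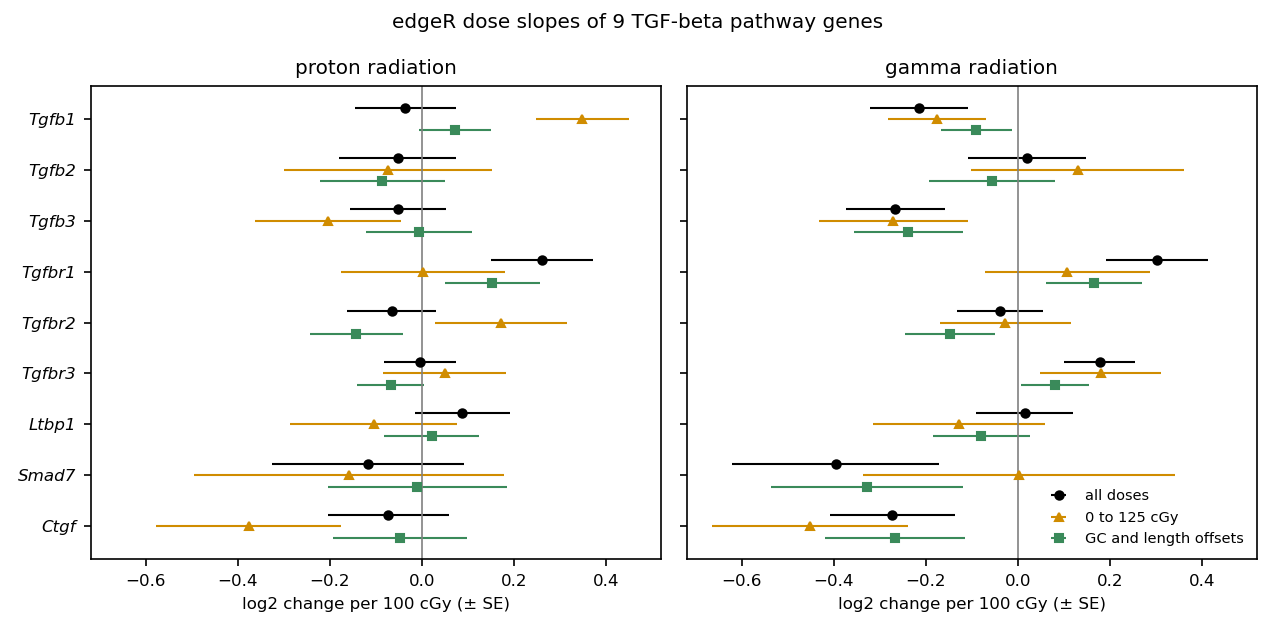
Dose slopes of the 9 genes from edgeR (horizontal axis, log2 change per 100 cGy, bars ± SE) after proton (left) and gamma (right) radiation, for all doses, for 0 to 125 cGy and with offsets for GC content and length. The slopes of Tgfbr1 over all doses are 0.260 and 0.303, and the proton slope of Tgfb1 moves from -0.036 to 0.348 when the 2 highest doses are left out.

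Of the 9 genes, 0 had a dose slope that passed an adjusted p of 0.1 in edgeR after protons, when 1.76% of all genes tested did, and 0 after gamma rays, when 7.65% did. At an unadjusted p under 0.05 there were 1 gene after protons (Tgfbr1) and 3 after gamma rays (Tgfb3, Tgfbr1 and Tgfbr3), beside 13.3% and 18.4% of all genes, and DESeq2 likewise called 0 of 9 in each series. The median slope was -0.052 after protons and -0.039 after gamma rays, beside 0.002 and 0.013 over all genes. In the gamma series the count of calls became 3 (Tgfb3, Tgfbr1 and Ctgf) without the 75 cGy pair, a fit in which 11% of all genes were called. It was 3 without the proton mouse at 75 cGy alone, beside 12.1% of all genes, and 1 without the gamma mouse at 100 cGy, beside 8.49%. The exact rank test called 0 of 9 upward or downward in either series. Of all genes it called 0.198% upward and 0% downward after protons, and 1.9% upward and 0.411% downward after gamma rays. At an unadjusted p under 0.05 it gave Tgfbr1 upward after protons, and after gamma rays Tgfbr1 and Tgfbr3 upward and Tgfb1, Tgfb3 and Ctgf downward. Of all genes, 7.12% did so upward after protons, and 14.5% upward and 8.86% downward after gamma rays.

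The slopes of the 9 genes were ordered against transcript GC content. Across the 9 genes, which are not independent replicates, the correlation of slope with GC content was -0.61 after protons and -0.78 after gamma rays. With GC and length offsets it was -0.01 and -0.61, and over 0 to 125 cGy 0.22 and -0.47.

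Whether the radiation types differed was asked of the slopes and of the levels at matched dose. No slope difference was called, with 0% of all genes and 0 of 9 called by edgeR, 0 of 9 at an unadjusted p under 0.05, and 0 of 9 by DESeq2. The largest difference over all doses, proton minus gamma, was 0.279 ± 0.305 for Smad7, which became 0.589 without the proton mouse at 5 cGy, 0.0975 without the proton mouse at 200 cGy, and 0.171 and 0.173 without the gamma mice at 150 and 200 cGy. Tgfb3 had 0.213 ± 0.148. For Tgfb1 the difference was 0.179 ± 0.152 over all doses and 0.523 ± 0.146 over 0 to 125 cGy (unadjusted p = 0.00273, edgeR adjusted p = 1), where it was the largest of the 9. At matched dose, again with 0% of all genes and 0 of 9 called by edgeR, 3 genes had an unadjusted p under 0.05, beside 7.86% of all genes, and DESeq2 called 0 of 9. Tgfbr3 was higher in the proton mouse in 9 of 10 pairs, with a log2 difference of 0.221 ± 0.059 (adjusted p = 0.325). Tgfb3 was higher in the gamma mouse in 8 of 10 pairs, with a log2 difference, proton minus gamma, of -0.333 ± 0.099 (adjusted p = 0.382), and so was Tgfb2, with -0.270 ± 0.104 (adjusted p = 0.541). Without the 75 cGy pair these values were 0.190 ± 0.059 for Tgfbr3, -0.263 ± 0.076 for Tgfb3 and -0.190 ± 0.073 for Tgfb2. The sham mice already differed in the same direction, with 1264 against 2006 counts of Tgfb3 and 718 against 579 of Tgfbr3. These differences can therefore not be told apart from a difference between the series that is unrelated to dose.

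Whether the target genes followed the ligands was examined across the mice of each series, as the correlation of log2 counts. For the pairs of 2 targets with 3 ligands and with their sum, 16 correlations were computed, with two-sided permutation p-values adjusted over the 16. The sum repeats the reads of the single ligands, so the 16 are not separate results. The permutations treat the mice as exchangeable, although they share differences in GC bias and marker sums. The share of all genes as strongly correlated with Ctgf or Smad7 was not computed. In the gamma series Ctgf went with Tgfb1, with r = 0.868 (permutation p = 0.00127, adjusted 0.00907) and rho = 0.833 (permutation p = 0.00433, adjusted 0.0346). It also went with Tgfb3, with r = 0.830 (permutation p = 0.0017, adjusted 0.00907) and rho = 0.879 (permutation p = 0.00152, adjusted 0.0243). With Tgfb2 the correlation was 0.351 (permutation p = 0.326, adjusted 0.43), and with the sum of the ligands r was 0.829. By r the Tgfb1 relation was as large within 0 to 125 cGy, which also leaves out the 2 mice farthest from the Tgfb1 median, at r = 0.900 (exact permutation p = 0.00441, adjusted 0.0706). The Tgfb3 relation had r = 0.689 there (exact permutation p = 0.0692, adjusted 0.221). By rho neither passed within 0 to 125 cGy, with 0.778 for Tgfb1 and 0.833 for Tgfb3 (exact permutation p = 0.0295 and 0.0154, both adjusted to 0.236). Without the 2 mice farthest from the Tgfb3 median, those at 0 and 150 cGy, r of Ctgf with Tgfb3 was 0.709 (exact permutation p = 0.054, adjusted 0.289). Its rho was 0.786 there (exact permutation p = 0.0279, adjusted 0.196). As residuals from a line on dose, Ctgf had r = 0.758 with Tgfb1 (adjusted permutation p = 0.094) and 0.690 with Tgfb3 (adjusted permutation p = 0.104).

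**Figure D3:**
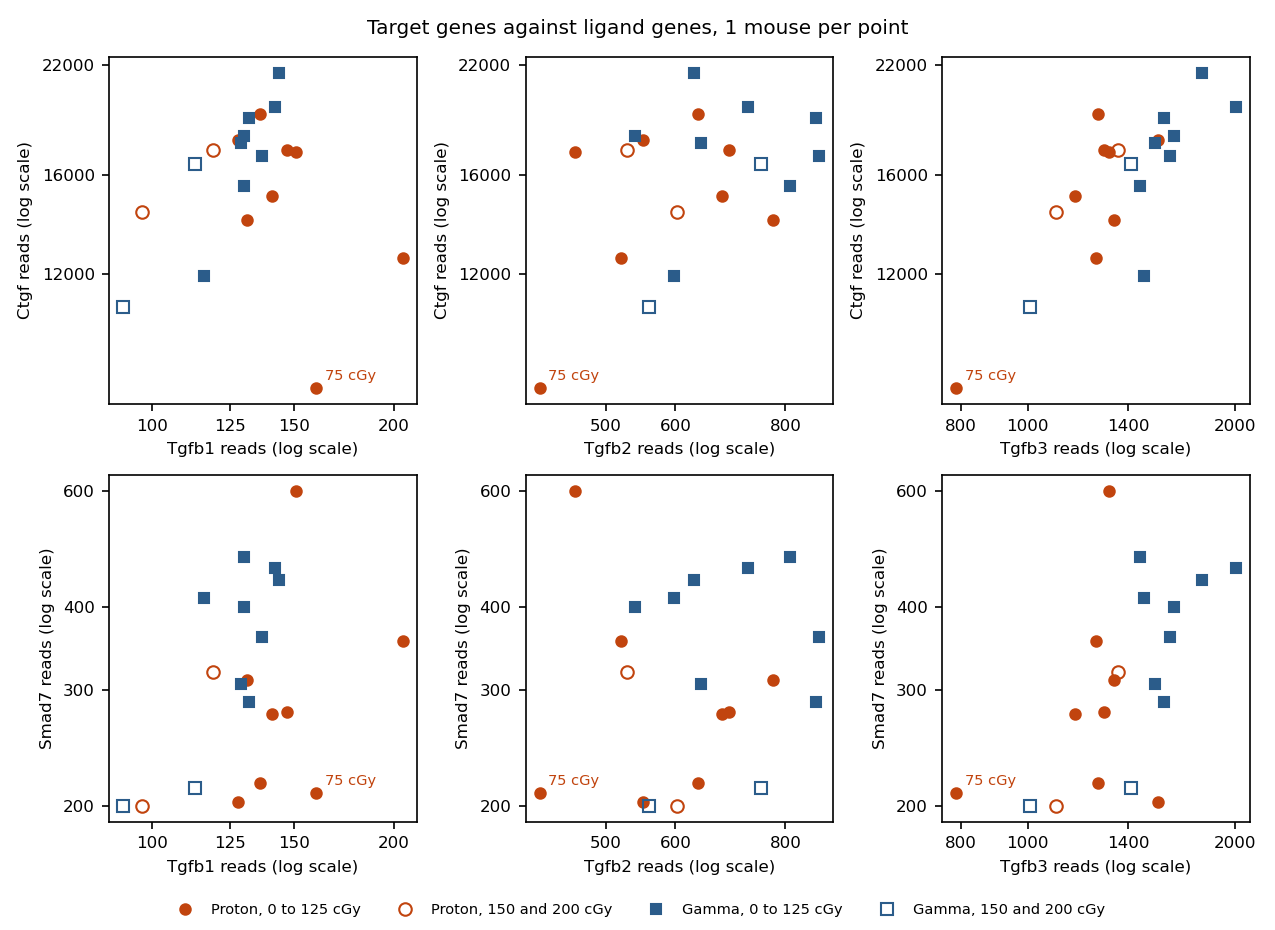
Counts of Ctgf (upper row) and Smad7 (lower row) against the counts of Tgfb1, Tgfb2 and Tgfb3 (reads per library, log axes), with 1 point per mouse and open symbols for 150 and 200 cGy. Ctgf went with Tgfb1 among the gamma squares (r = 0.868) and not among the proton circles (r = -0.365), and the proton mouse at 75 cGy lies alone at the lower left against Tgfb3.

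The proton series gave another picture. Ctgf had r = -0.365 with Tgfb1 (permutation p = 0.276, adjusted 0.401) and rho = -0.455. With Tgfb3 it had r = 0.840 (permutation p = 0.0125, adjusted 0.0334) and rho = 0.600 (permutation p = 0.0732, adjusted 0.234). The Tgfb3 value rested on the mouse at 75 cGy, without which r was 0.423 (exact permutation p = 0.259, adjusted 0.46), and without the 2 mice farthest from the Tgfb3 median, at 10 and 75 cGy, it was 0.319. The difference between the series was not tested. Smad7 was related to Tgfb1 and to Tgfb3 in the gamma series, with r = 0.750 and 0.722 (permutation p = 0.011 and 0.0107, both adjusted to 0.0334), but its rho values were 0.602 and 0.527 (adjusted permutation p = 0.234 and 0.306). Within 0 to 125 cGy these correlations were 0.161 and 0.300, so that they rested on the mice at 150 and 200 cGy. Without the 2 mice farthest from the Tgfb3 median, at 0 and 150 cGy, r of Smad7 with Tgfb3 was 0.403. With GC and length offsets neither passed, at r = 0.243 with Tgfb1 and 0.545 with Tgfb3 (adjusted permutation p = 0.602 and 0.264). In the proton series Smad7 had r between -0.193 and 0.404 with the ligands, with adjusted permutation p of 0.379 or higher.

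Around these 9 genes, 82 genes of the TGF-β superfamily in 6 lists by role were tested, some of the 9 among them. After proton radiation 1 of the 82 (1.22%) passed the threshold, beside 1.76% of all genes, and after gamma radiation 7 (8.54%), beside 7.65%. DESeq2 called 3 and 9, beside 2.36% and 9.11% of all genes. The one gene after protons was Gdf15, a stress-induced and p53-responsive ligand distant from the TGF-βs. It had 3 counts in the proton sham mouse and 59 at 200 cGy, with a slope of 1.61 ± 0.359 per 100 cGy (edgeR adjusted p = 0.0466). After gamma rays it had 7 counts in the sham mouse and 28 at 200 cGy, with a slope of 1.06 ± 0.386 (adjusted p = 0.13). Its slopes over 0 to 125 cGy were 2.14 ± 0.621 and 2.02 ± 0.612 (adjusted p = 0.736 and 0.43), in the same direction at low counts.

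Of 18 early target genes, 0 passed after protons in edgeR and 0 in DESeq2, with 4 at an unadjusted p under 0.05, beside 13.3% of all genes. After gamma rays 1 fell in edgeR, beside 7.65% of all genes called in either direction. Of the 18 gamma slopes 4 were above 0, beside 53.5% over all genes, with a median of -0.181 beside 0.013. The gene that fell was Pmepa1, a SMAD-induced membrane protein that restrains the pathway, which also stands in the list of SMAD regulators. Its gamma counts were 3704 in the sham mouse, 4736 at 5 cGy, 2447 at 150 cGy and 2379 at 200 cGy, with a slope of -0.443 ± 0.0928 (edgeR adjusted p = 0.016). The 2 highest doses lay below the 2946 to 4736 counts of the gamma mice at 0 to 125 cGy. The share of all genes that split in this way was not computed. The gamma slope of Pmepa1 was -0.452 ± 0.166 over 0 to 125 cGy (adjusted p = 0.605) and -0.416 ± 0.104 with GC and length offsets (adjusted p = 0.066). The proton slope was -0.192 ± 0.0903 (adjusted p = 0.367). Other early targets did not pass. Tgfbi, a matrix protein named for its induction by TGF-β, had -0.108 ± 0.318 and -0.315 ± 0.302. Skil, a SMAD corepressor, had 0.365 ± 0.119 after protons (adjusted p = 0.167) and 0.120 ± 0.127 after gamma rays. Id1, which answers mainly to BMP signals, had 0.492 ± 0.165 (adjusted p = 0.183) and 0.113 ± 0.174. Klf10, an early transcription factor of the response, had -0.469 ± 0.303 and -0.425 ± 0.312.

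In the other lists the edgeR gamma calls were spread over roles and directions, in a fit that called 7.65% of all genes. Among 13 genes of latency and activation, 1 rose and 1 fell. Fbn1, the microfibril protein fibrillin-1, rose with a slope of 0.311 ± 0.089 (edgeR adjusted p = 0.0584), and Ltbp3, a relative of Ltbp1, fell with -0.238 ± 0.0772 (adjusted p = 0.0916). DESeq2 called 4 of these 13, beside 9.11% of all genes. Furin and Ltbp4 were the others, with edgeR slopes of -0.218 and -0.282 (adjusted p = 0.106 and 0.102). Among 12 receptors, Acvr2a, an activin type II receptor, rose with 0.237 ± 0.079 (adjusted p = 0.0983). Among 19 SMADs and regulators, Wwp1, a ubiquitin ligase, rose with 0.232 ± 0.0691 (adjusted p = 0.0672) beside the fall of Pmepa1. Of 13 secreted antagonists and binders 0 passed after gamma rays in edgeR and 1 in DESeq2, beside 7.65% and 9.11% of all genes. At an unadjusted p under 0.05 in edgeR there was 1, beside 18.4% of all genes. Of the 13 gamma slopes 1 was above 0, beside 53.5% over all genes. Of 12 other ligands, 2 passed after gamma rays in edgeR, again beside 7.65% of all genes. Inhba, which encodes the activin A subunit, had 53 counts in the sham mouse, 165 at 150 cGy and 182 at 200 cGy, with a slope of 0.898 ± 0.227 (adjusted p = 0.0365). Bmp2 had a slope of -0.379 ± 0.127 (adjusted p = 0.099) at 25 to 53 counts. The gamma slopes over 0 to 125 cGy were 0.194 (Fbn1), -0.105 (Ltbp3), 0.105 (Acvr2a), 0.118 (Wwp1) and -0.342 (Bmp2).

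**Figure D4:**
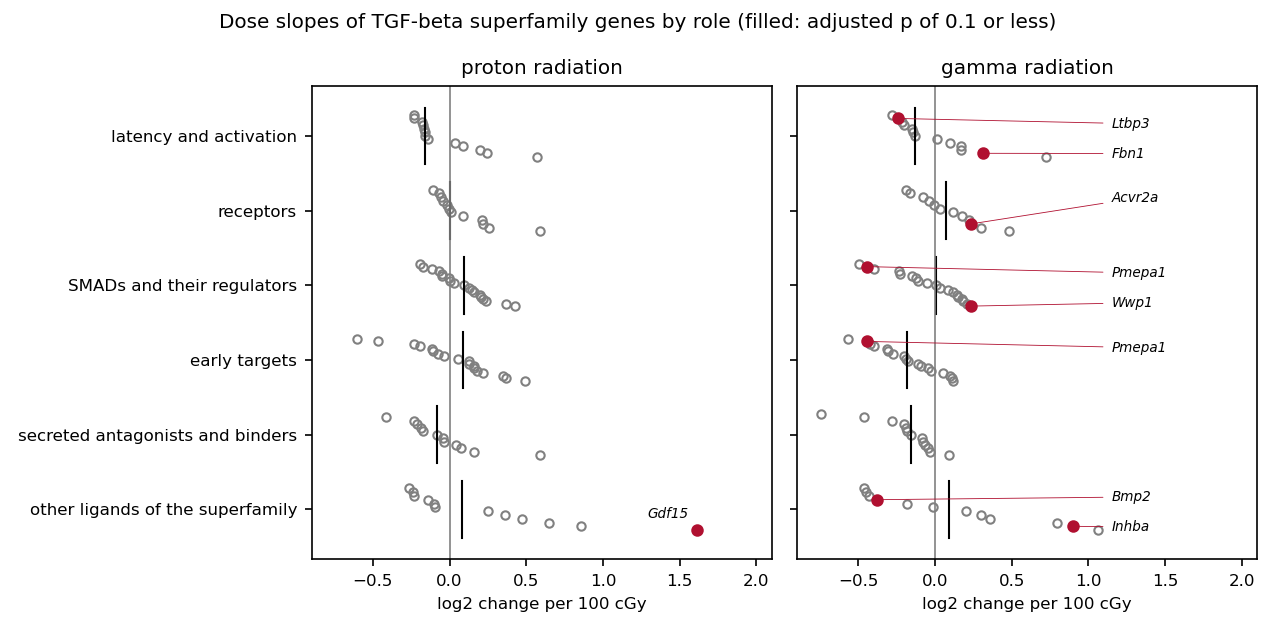
Dose slopes (horizontal axis, log2 change per 100 cGy) of the tested superfamily genes in 6 lists by role after proton (left) and gamma (right) radiation, with 1 circle per gene, filled where the adjusted p was 0.1 or less, and a bar at each list's median. Gdf15 is the single filled point after protons, at 1.61, and 7 genes are filled after gamma rays, Pmepa1 in both lists that hold it.

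Over 0 to 125 cGy edgeR called 0 of the 82 genes in either series, in a fit that called 0.107% of all genes after protons and 0.259% after gamma rays. At an unadjusted p under 0.05 there were 3 of the 82 after protons and 9 after gamma rays, beside 4.57% and 5.96% of all genes. The slopes of Gdf15, Pmepa1 and Bmp2 were of similar size or larger there, with wider errors. Inhba differed in this, since its gamma slope was -0.0459 ± 0.299 over 0 to 125 cGy, where its counts ran from 35 to 65. In the proton series Inhba had 35 to 86 counts up to 125 cGy, 150 at 150 cGy and 175 at 200 cGy, with a slope of 0.650 ± 0.224 (adjusted p = 0.194). A split with all 4 mice at 150 and 200 cGy above the other 16 was found in 6.8% of all genes tested. With GC and length offsets Inhba and Pmepa1 remained of the 7 gamma calls, and Gdf15 remained after protons. These were 2.44% of the 82 genes after gamma rays and 1.22% after protons, beside 2% and 0.579% of all genes in that fit. Without the 75 cGy pair there were 3 calls after protons and 12 after gamma rays (3.66% and 14.6%), beside 2.86% and 11% of all genes.

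The 3 genes most like each of the 9 were found by Spearman correlation of TMM-normalized log2 counts over the 20 mice, among all genes tested. For Tgfbr1 they were Scn2a1 (rho = 0.931), Itgb1 (0.898) and Bicd1 (0.895). Tgfb3 was most like Wtip (0.928), Grip2 (0.907) and 2310022B05Rik (0.892), and Tgfbr2 most like Timd4 (0.904), Arsb (0.886) and Bicc1 (0.874). Smad7 was most like 6430527G18Rik (0.892), Id3 (0.874) and Mn1 (0.859). Ltbp1 went with Sema3d (0.892), Tmem123 (0.848) and Sept2 (0.841), and Ctgf with Jdp2 (0.850), Tle3 (0.847) and Cyp26b1 (0.832). The values were lower for Tgfb1 with Smarcd1 (0.830), Slc38a10 (0.821) and Fntb (0.798), for Tgfb2 with Pkia (0.830), Osbp (0.826) and Fam184b (0.798), and for Tgfbr3 with Tnfrsf14 (0.830), Pter (0.797) and Mcc (0.786). The mice share the differences in GC bias and in fat, fibroblast, erythroid, macrophage and endothelial markers given above, which enter these values. Over the 15 mice without the 4 at the highest doses and the proton mouse at 75 cGy, these rho values were 0.586 to 0.632 for Tgfb1, 0.764 to 0.843 for Tgfbr1 and 0.725 or higher for the genes like the other 7.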

How the data were processed

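RNA of the thoracic aorta was sequenced in 20 mice as stranded, polyA-selected libraries of paired 100-base reads. The authors aligned the reads with STAR 2.5.2a to mm9, resampled the libraries to a common depth with PORT and deposited sense-strand read counts per gene, the unit used here; the submitters' processing notes also name CASAVA 1.8.1. Gene intervals in the table extend 202 bases beyond GENCODE M1 on each side, and coordinates are given from the annotation.

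Slopes were fitted to all 13124 genes in edgeR 4.0.16 (TMM, robust quasi-likelihood), with an intercept and a slope for each radiation type, and matched doses were compared with dose as a factor. P-values were adjusted by Benjamini-Hochberg over all genes, with a threshold of 0.1. The rank trend was an exact one-sided permutation test over all orders of the 10 doses. Correlations used log2(count + 1) and 100000 permutations, exact with fewer than 10 mice. The paper's trend test counted steps of like direction between doses and took the slope of a fitted line. Its permutations used the largest value of each statistic among the genes. That test was replaced here by this rank trend with Benjamini-Hochberg adjustment. GC content was that of the annotated protein-coding transcript, available for 95.9% of tested genes. The edgeR and rank tests were tested on simulated data. Alternatives included DESeq2 1.42.0, other filters and dose scales, offsets for GC content and length, a brown fat covariate and leaving out mice. Some were chosen after seeing the data, namely 0 to 125 cGy without the pair at 75 cGy, the correlations at 0 to 125 cGy and with GC offsets, and the alternatives for pathway genes and for the rho values between genes. The 9 genes and the lists were chosen with earlier results of these data known. The named superfamily genes are those past the threshold and a set of well-known targets, of which 1 is not reported here. Nothing in the labels says that the mice came from separate cages or days. The edgeR p-values rest on the scatter of these mice around the fitted model. For the slopes this scatter also holds any departure from a straight line. The rank and correlation p-values come from permuted orders of the mice. Counting error was not assessed separately, and the reads carry no molecular identifiers. R 4.3.3, Python 3.11.15 and scipy 1.17.1 were used.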

Additional observations from a re-analysis of the deposited data

Results flagged for a closer look

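In 2 of 18 sets of 10 mice, 1 for each gene and series, a single mouse stood apart from the others by Dixon's criterion, which chance alone meets in about 1 of 20 sets. Ltbp1 was lowest in the proton mouse at 75 cGy, with 3188 counts against 5490 in the nearest proton mouse, a gap of 0.669 of the range of the series. Fat marker counts were highest and smooth muscle marker counts lowest in the same mouse, and their part in the value was not tested. Smad7 was highest in the proton mouse at 5 cGy, with 600 counts against 356 in the nearest, a gap of 0.61 of the range.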

How the results depend on the processing

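For the gamma slopes, 0 of 9 genes were called with all mice, 1 without scaling beyond the library total, 3 without the 75 cGy pair, 1 with the brown fat covariate and 0 to 3 when 1 mouse was left out. In these fits, in the same order, 7.65%, 8.5%, 11% and 11.7% of all genes were called, and 0.587% to 12.1% with 1 mouse left out. The exact trends had 0 calls in each series. At a mean count of at least 50 there was 1 in the gamma series (Tgfb3), where 80 of 9817 genes were called downward. By the slope of a fitted line, 1 gene (proton) and 6 genes (gamma) had an unadjusted one-sided permutation p under 0.05 in either direction. The fitted line was tested on the 9 genes alone, so no share over all genes stands beside these counts. Of 16 target and ligand correlations 8 passed by Pearson's r and 2 by Spearman's rho, and by r 3 as residuals on dose, 1 without the 2 farthest mice, 1 over 0 to 125 cGy and 5 with GC offsets. These counts include the ligand sum, and no share over all genes stands beside them. Pathway calls went from 1 (proton) and 7 (gamma) to 0 and 0 over 0 to 125 cGy, to 3 and 12 without the 75 cGy pair to 2 (gamma) with GC offsets and to 3 (proton) in DESeq2. Over all genes, calls went from 231 (proton) and 1004 (gamma) to 14 and 34 over 0 to 125 cGy, 76 and 262 with GC offsets, 139 and 618 without a filter, 41 and 480 on ranked dose, 22 and 45 on log2 dose, 376 (proton) without the 75 cGy pair, 473 and 1531 with the brown fat covariate, and 29 to 637 and 77 to 1583 when 1 mouse was left out. The DESeq2 calls at matched dose were 70, against 0.

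Signs changed as follows, and the cause was not tested. Over 0 to 125 cGy, proton slopes were 0.348 (Tgfb1), 0.172 (Tgfbr2), 0.0489 (Tgfbr3), -0.105 (Ltbp1), -0.044 (Acvr2a), 0.046 (Bmp2), -0.00659 (Fbn1), -0.116 (Inhba), -0.248 (Skil) and 0.265 (Tgfbi). Gamma slopes there were -0.127 (Ltbp1), 0.00207 (Smad7), -0.0459 (Inhba) and -0.13 (Skil). Slope differences were 0.199 (Tgfbr2) and -0.16 (Smad7), and r of Smad7 with Tgfb2 in gamma mice was -0.232. When the 75 cGy pair was also left out, proton slopes were 0.354 (Tgfb1), 0.0138 (Tgfb2) and 0.0793 (Tgfbr2), gamma slopes -0.139 (Ltbp1) and 0.086 (Smad7), and differences 0.0418 (Tgfbr1), 0.0922 (Tgfbr2) and -0.156 (Smad7). With GC offsets, slopes were 0.0718 (Tgfb1, proton), -0.0559 (Tgfb2, gamma), -0.0787 (Ltbp1, gamma) and -0.0622 (Skil, gamma), and the Tgfbr2 difference was 0.00434. With the brown fat covariate, the Tgfbr3 proton slope was 0.0283, and differences were -0.0327 (Ltbp1) and 0.0657 (Tgfbr2). On log2 dose, values were 0.00552 (Tgfb1, proton), 0.000631 (Tgfbr3, proton), -0.00402 (Ltbp1, gamma) and 0.0117 (Tgfbr2, difference). On ranked dose, Ltbp1 after gamma rays had -0.000337. In proton mice without the one at 75 cGy, r was -0.122 for Ctgf with Tgfb2 and -0.146 for Smad7 with the ligand sum, and for the latter -0.218 without the 2 farthest mice. When 1 mouse was left out, proton slopes ran from -0.138 to 0.0657 (Tgfb1), -0.126 to 0.000949 (Tgfb2), -0.0761 to 0.0263 (Tgfbr3) and -0.299 to 0.186 (Smad7). Gamma slopes ran from -0.0499 to 0.0953 (Tgfb2), -0.0938 to 0.00103 (Tgfbr2) and -0.0699 to 0.031 (Ltbp1), and differences from -0.123 to 0.0212 (Tgfbr1) and -0.0764 to 0.0361 (Tgfbr2).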

Other observations

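Over the 20 mice, some of the 9 genes varied together and others in opposition, given here as a description with Spearman's rho. Ctgf varied with Tgfb3 (0.741), and Tgfbr1 varied with Ltbp1 (0.635). Tgfbr3, the co-receptor, varied against Tgfb3 (-0.675) and against Smad7 (-0.654). The type I receptor Tgfbr1 varied against its partner Tgfbr2 (-0.565) and against Tgfb1 (-0.565). The targets Ctgf and Smad7 had a rho of 0.322 with each other. All points share library depth, and the mice at 150 and 200 cGy and the proton mouse at 75 cGy enter every value. Without these 5 mice the rho values were 0.654 (Ctgf with Tgfb3), 0.404 (Tgfbr1 with Ltbp1), -0.650 (Tgfbr3 with Tgfb3), -0.675 (Tgfbr3 with Smad7), -0.371 (Tgfbr1 with Tgfbr2), -0.0321 (Tgfbr1 with Tgfb1) and 0.0179 (Ctgf with Smad7).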
